A study of Mus musculus with 24 samples.

Results

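T cell receptor (TCR) repertoires of paired same-day tumors were compared in 3 untreated mice, numbers 6, 12 and 14, which form the time-matched group. Members were the samples titled as time-matched, 6 tumors of 24 in the series, and tumor 1 was set against tumor 2 of the same mouse. The mice were female BALB/c, aged 7 to 9 weeks, and received 500000 CT26.CL25 cells under the skin of each flank. CT26.CL25 is a mouse colon carcinoma line that carries the bacterial lacZ gene and was grown under G418 selection, so it also carries the resistance gene. Both tumors were taken on day 13. RNA came from whole tumor tissue, so T cells were not sorted, and fewer T cells cannot be told apart from less receptor RNA per cell. The labels number the tumors without giving the flank, and the numbers serve as labels only. The 9 other mice had their tumors harvested 11 days apart, the first by surgery under anesthesia, with 3 untreated, 3 given decitabine at 0.5 mg/kg and 3 at 2 mg/kg; decitabine inhibits DNA methyltransferases. They are used to compare the agreement between the tumors of a mouse and to mark the joints of the sequences below.

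Each TCR chain is assembled from V and J segments (and a D segment in the β chain) with random trimming and addition of bases at the joints. The joint lies in complementarity-determining region 3 (CDR3), the loop that contacts most of the presented peptide, and the daughters of 1 T cell inherit it unchanged. A clonotype, here a CDR3 amino acid sequence with its V and J segment, can therefore serve as a tag of a T cell family. It can also join separate families, as with clonotypes found in different mice. When a clonotype is found at a like frequency in separate tumors, its cells occupy both sites, whereas V and J usage sums over many clonotypes that share a segment. Per RefSeq (GRCm38.p6), the 27 segments chosen by use or by change are encoded on mouse chromosome 6 (TCRβ) and chromosome 14 (TCRα), and 27 of 27 were matched.

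The sequences below are CDR3 coding sequences as deposited, 5′ to 3′, of the largest clonotype of each mouse and of those with the widest change between tumors, since the comparisons below turn on them. Capitals mark bases in the middle of the joint. They lie outside the start shared with at least 10% of the CDR3s of the same V segment in the other 11 mice. They also lie outside the end shared with at least 10% of those of the same J segment there. Lower case thus marks shared bases, which can include bases of the joint. Lower-case starts printed below for the same V segment differ, as tgtgccagcagtgatg and tgtgccagcagtgattgg do, so they cannot all be sequence of the segment itself. Where no letter is in capitals, start and end met. Clonotypes are named by their V and J segments and their mouse.

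The largest clonotypes were, for mouse 6, 12 and 14 in turn, first TCRβ and then TCRα:
TRBV17/TRBJ2-1 of mouse 6: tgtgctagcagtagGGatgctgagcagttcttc
TRBV13-2/TRBJ2-5 of mouse 12: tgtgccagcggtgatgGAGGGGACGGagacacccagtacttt
TRBV13-1/TRBJ2-4 of mouse 14: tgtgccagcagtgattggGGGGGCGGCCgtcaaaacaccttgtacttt
TRAV9-1/TRAJ40 of mouse 6: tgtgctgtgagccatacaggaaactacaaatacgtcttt
TRAV7-4/TRAJ15 of mouse 12: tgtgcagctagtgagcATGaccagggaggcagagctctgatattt
TRAV7-3/TRAJ30 of mouse 14: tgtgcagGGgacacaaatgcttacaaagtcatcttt

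In mouse 12 the third of the TCRα clonotypes by size had the same CDR3 amino acids as the last of these, with another V segment and another coding sequence:
TRAV7-1/TRAJ30 of mouse 12: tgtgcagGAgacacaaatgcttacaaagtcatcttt

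The clonotypes with the widest change between tumors were, in the same order:
TRBV17/TRBJ2-5 of mouse 6: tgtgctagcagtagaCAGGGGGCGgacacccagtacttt
smaller TRBV13-1/TRBJ2-7 of mouse 12: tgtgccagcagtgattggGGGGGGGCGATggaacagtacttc
TRBV3/TRBJ2-7 of mouse 14: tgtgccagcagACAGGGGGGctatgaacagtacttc
TRAV10/TRAJ52 of mouse 6: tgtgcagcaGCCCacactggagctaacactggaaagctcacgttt
TRAV17/TRAJ49 of mouse 12: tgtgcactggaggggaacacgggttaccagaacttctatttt
TRAV16/TRAJ58 of mouse 14: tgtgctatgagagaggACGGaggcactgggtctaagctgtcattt

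The clonotypes with the largest share difference within 1 of 4 segments whose usage differed between the tumors of mouse 14, chosen after their values were seen, were:
TRBV15/TRBJ2-4 of mouse 14: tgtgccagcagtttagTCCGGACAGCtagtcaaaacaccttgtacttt
TRBV13-1/TRBJ1-3 of mouse 14: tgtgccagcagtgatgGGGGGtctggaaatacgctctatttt
TRAV7-4/TRAJ39 of mouse 14: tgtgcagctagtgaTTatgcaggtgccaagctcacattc
TRAV7-3/TRAJ22 of mouse 14: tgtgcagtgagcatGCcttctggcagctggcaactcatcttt

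With sequences marked for a stop codon and those of 1 count left out, the 6 TCRβ libraries held between 375898 and 610800 counts and the 6 TCRα libraries between 176171 and 846655. They listed 2657 to 3746 TCRβ and 2210 to 3475 TCRα clonotypes. How many T cells gave these counts was not recorded, so intervals and limits below reflect counting error alone, and a share of 0 means up to 3 counts in that library (0.000491% to 0.000798% for TCRβ, 0.000354% to 0.00170% for TCRα).

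Every clonotype over 1% in 1 tumor was found in the other tumor of the mouse. Shares are percentages of a library's retained counts, and clonotypes were sorted into 5 abundance classes by their share in the source tumor. There were 64 such TCRβ and 70 such TCRα entries, counted from each tumor in turn. The class over 1% held 78.1% ± 5.63 of TCRβ counts (SD, n = 3 mice, each the mean of its tumors) and 61.7% ± 19.4 of TCRα counts. Within it, 95.4% ± 3.99 of TCRβ and 94.3% ± 7.25 of TCRα clonotypes had shares within 2-fold of each other. Tumors 1 and 2 had 8, 10 and 10 of their 10 largest TCRβ clonotypes in common in mice 6, 12 and 14, and 8, 10 and 8 of their 10 largest TCRα clonotypes. Of 343 clonotypes with a mean share of 0.1% or more, 341 were found in both tumors and 339 had the same main CDR3 coding sequence there.

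The TRBV17/TRBJ2-1 clonotype took up more than any other in mouse 6, with 56.1% of TCRβ counts in tumor 1 and 56.2% in tumor 2. TRBV4/TRBJ2-1 had 9.42% and 7.38%, and TRBV13-1/TRBJ1-1 had 2.33% and 2.04%. In mouse 12, TRBV13-2/TRBJ2-5 had 23.6% and 28.1%, TRBV17/TRBJ1-1 had 17.0% and 16.8%, and TRBV13-1/TRBJ2-7 had 15.7% and 11.9%. In mouse 14, TRBV13-1/TRBJ2-4 had 25.0% and 21.2%, TRBV17/TRBJ1-1 had 12.5% and 9.93%, and TRBV13-1/TRBJ2-3 had 9.53% and 12.6%. The order of the first 3 was kept in mice 6 and 12, while in mouse 14 TRBV17/TRBJ1-1 had rank 2 in tumor 1 and rank 4 in tumor 2.

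Among TCRα chains, TRAV9-1/TRAJ40 led in mouse 6 with 9.51% and 10.1%, TRAV7-4/TRAJ15 in mouse 12 with 30.6% and 35.1%, and TRAV7-3/TRAJ30 in mouse 14 with 21.9% and 18.3%. In mouse 6, TRAV8-2/TRAJ52 followed with 6.08% and 6.14% and TRAV17/TRAJ53 with 2.81% and 4.73%. In mouse 12, TRAV16D/DV11 with TRAJ30 had 18.7% and 18.0% and TRAV7-1/TRAJ30 had 8.39% and 8.52%. In mouse 14, TRAV12-1/TRAJ26 had 14.1% and 11.5% and TRAV12-1/TRAJ33 had 9.83% and 13.0%, so that they exchanged ranks 2 and 3. These shares are precise as counts go: 95% Clopper-Pearson intervals were 56.0% to 56.2% and 56.1% to 56.4% for TRBV17/TRBJ2-1 of mouse 6, which overlap, and 23.5% to 23.7% and 28.0% to 28.3% for TRBV13-2/TRBJ2-5 of mouse 12, which do not. The median absolute log2 ratio over TCRβ clonotypes above 1% was 0.25 ± 0.08 (SD, n = 3), against a median counting standard error of 0.017 ± 0.0041 on the same scale, and for TCRα 0.26 ± 0.12 against 0.024 ± 0.012. Single clonotypes over 1% differed by more in mouse 14, where TRAV7-4/TRAJ39 had 2.92% and 10.4%, TRBV13-1/TRBJ1-3 had 1.59% and 5.38%, and TRAV7-3/TRAJ22 had 1.85% and 0.0172%.

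**Figure D1:**
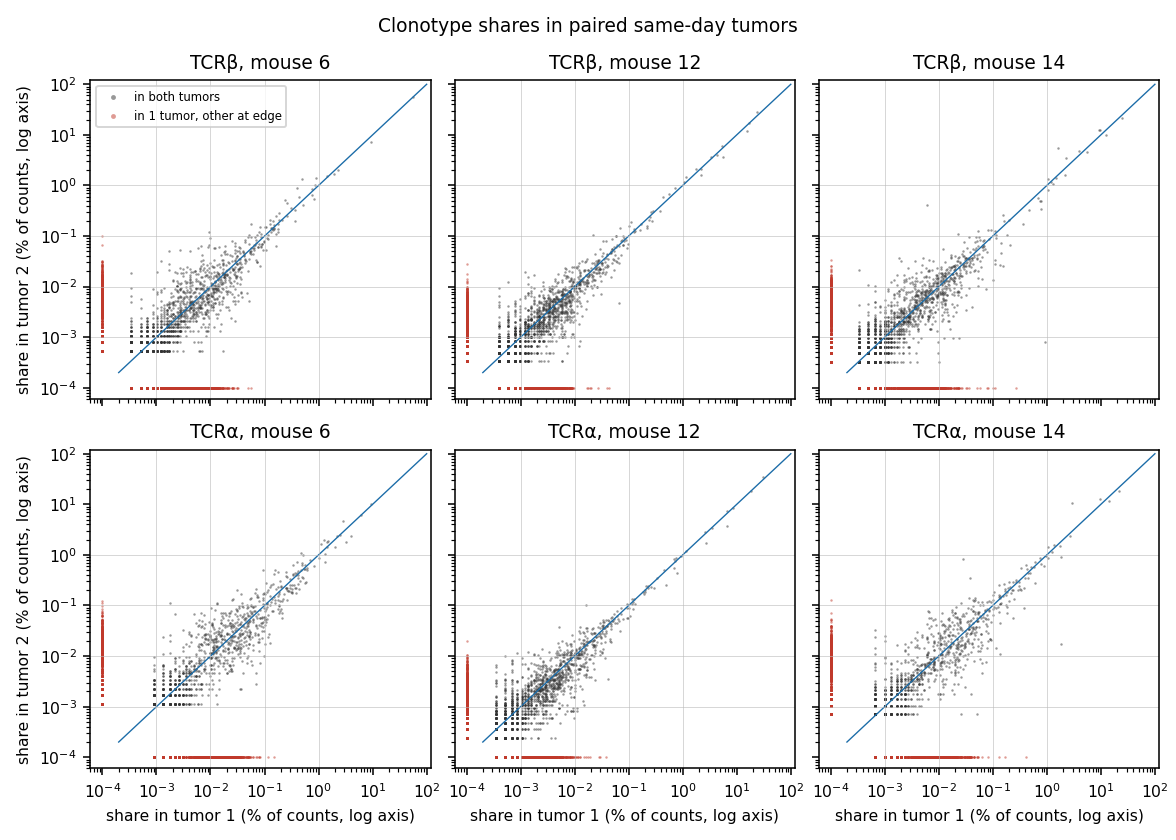
Share of each clonotype in tumor 1 (horizontal) and tumor 2 (vertical) of the 3 mice, in % of retained counts on log axes, with TCRβ above and TCRα below. Grey lines mark the class boundaries, the blue line marks equal shares, and red points at the edge were found in 1 tumor only. Above 1% most points lie near the line, with the TCRα clonotype TRAV7-3/TRAJ22 of mouse 14 far from it at 1.85% and 0.0172%, and the cloud widens as the share falls.

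Between 0.1% and 1%, 162 of 165 TCRβ and 396 of 404 TCRα entries were found in the other tumor. Shares within 2-fold made up 81.1% ± 17.9 of TCRβ and 86.4% ± 10.4 of TCRα clonotypes (SD, n = 3), with means of 61.1% in mouse 14 and 95.5% in mouse 12 for TCRβ. Past 2-fold were 13 of 112 TCRβ clonotypes with a mean share of 0.1% or more over both tumors (11.6%), against 74% of all 15798 TCRβ clonotypes. For TCRα it was 31 of 231 (13.4%), against 78.5% of all 12568. Spearman's rho between the tumors, over clonotypes of 0.1% or more in 1 mouse, was 0.830, 0.961 and 0.837 for TCRβ in mice 6, 12 and 14 and 0.757, 0.980 and 0.681 for TCRα. It describes clonotypes that share 2 libraries and carries no test.

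Some clonotypes of this size were found in 1 tumor only. In mouse 14, TRBV3/TRBJ2-7 had 1644 counts in tumor 1 (0.273%) and 0 of 610800 in tumor 2, which allows up to 0.000491%, so its share was at least 555-fold lower there. The TCRα clonotype TRAV16/TRAJ58 of the same mouse had 1211 counts in tumor 1 (0.404%) and 0 of 285485 in tumor 2. With the 0 set at 3 counts this was 384-fold lower. Both were at 0 in the same tumor. In mouse 6 the clonotype with the widest change in each chain was at 0 in tumor 1. There TRBV17/TRBJ2-5 had 0 counts in tumor 1 and 381 in tumor 2 (0.101%), 198-fold higher with the 0 set at 3 counts. TRAV10/TRAJ52 had 0 and 215 (0.122%), 91.8-fold higher by the same limit. Absences of TCRα clonotypes from 0.1% to 1% ran both ways, with 107 of 109 from tumor 1 and 109 of 111 from tumor 2 found in the other tumor of mouse 6, and 63 of 66 and 67 of 68 in mouse 14. In mouse 12 the widest changes were smaller, and both clonotypes were present in both tumors. The smaller TRBV13-1/TRBJ2-7 clonotype had 110 and 620 counts (0.0217% and 0.103%), a log2 ratio of 2.23, and TRAV17/TRAJ49 had 93 and 876 (0.0163% and 0.103%), a log2 ratio of 2.66.

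Agreement on presence fell in the classes below. Between 0.01% and 0.1%, 78.7% ± 16.0 of TCRβ clonotypes were found in the other tumor (SD, n = 3), with 66.5%, 96.8% and 72.7% in mice 6, 12 and 14. For TCRα it was 63.2% ± 28.6, with 43.7%, 96.1% and 49.8%. Mouse 12 was the highest for both chains. It also had the deepest pair of TCRα libraries, with 571995 and 846655 counts, while its TCRβ libraries of 506151 and 602101 counts were both below those of mouse 14, with 602622 and 610800. Between 0.001% and 0.01%, 42.9% ± 0.727 of TCRβ and 45.9% ± 3.17 of TCRα clonotypes were found in the other tumor, with little difference between mice. Below 0.001% it was 37.3% ± 2.67 and 28.2% ± 13.0.

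Expected counts in the other tumor, at an equal share, were set beside these values. In the class from 0.01% to 0.1%, every one of 1906 TCRβ entries would give at least 3 counts in the other tumor by that measure, and 475 of them (24.9%) had none. Of 3257 TCRα entries, 1546 (47.5%) had none. From 0.001% to 0.01%, 5385 of 9387 such TCRβ entries (57.4%) and 3451 of 6605 TCRα entries (52.2%) had none. Sequences of 1 count were left out, so a clonotype with 1 count in the other tumor is scored as having none. These expectations take every count as its own molecule. The number of T cells per tumor was not measured, and the part of either in these counts was not tested. Among clonotypes found in both tumors, the median absolute log2 ratio from 0.01% to 0.1% was 0.53 ± 0.11 for TCRβ, against a counting standard error of 0.21, and 0.70 ± 0.26 for TCRα against 0.25. From 0.001% to 0.01% it was 0.61 against 0.55 for TCRβ and 0.54 against 0.77 for TCRα.

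**Figure D2:**
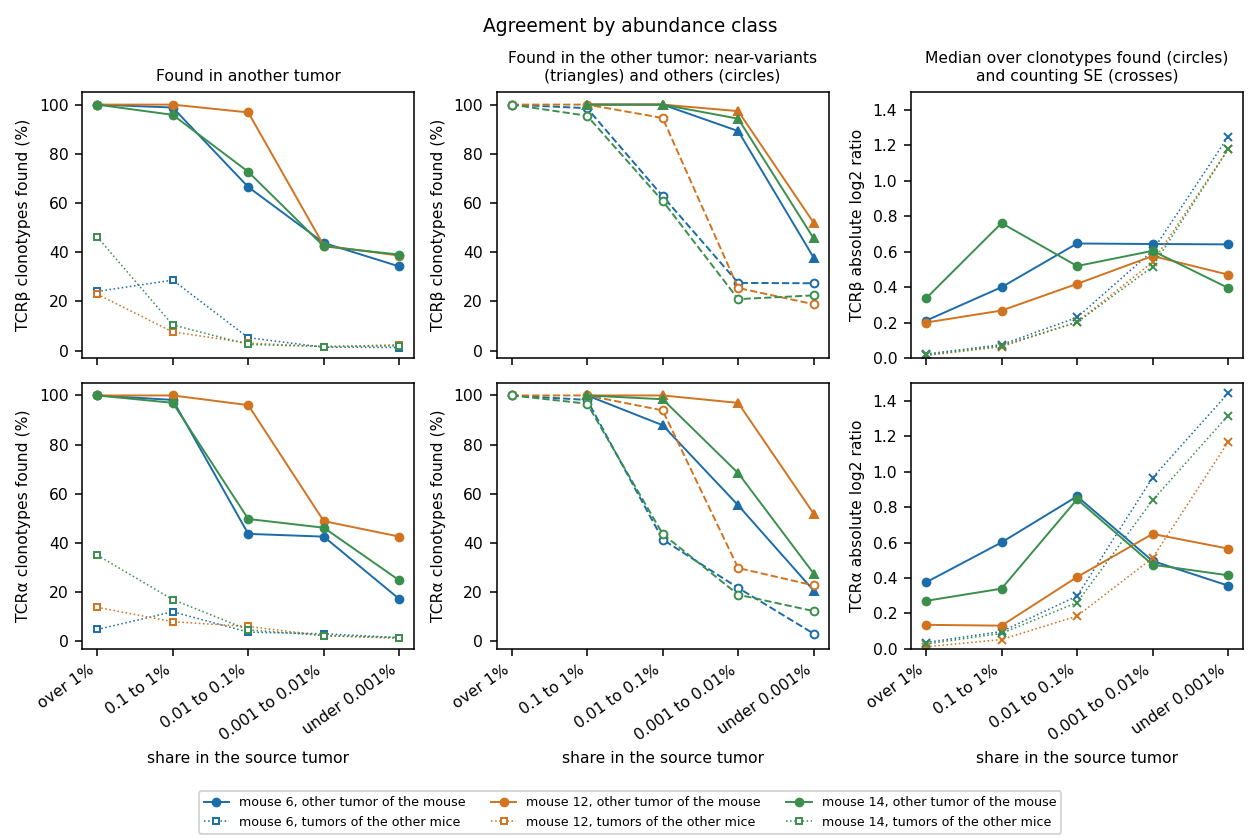
Agreement by abundance class, from over 1% at left to under 0.001% at right, 1 color per mouse, TCRβ above and TCRα below. Left, clonotypes found in the other tumor of the mouse (circles) or on average in the tumors of the other time-matched mice (squares); middle, the same for near-variants (triangles) and all others (open circles) in the other tumor of the mouse; right, median absolute log2 ratio (circles) and counting standard error (crosses). From 0.01% to 0.1%, mouse 12 keeps 96.8% of TCRβ clonotypes and mice 6 and 14 keep 66.5% and 72.7%.

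Many small clonotypes were close copies of large ones. Clonotypes whose main CDR3 coding sequence was the same as, or 1 substitution away from, that of a clonotype at least 20 times larger in the same tumor are called near-variants here, a class defined after the data were seen. They were 38.0% to 50.1% of TCRβ and 42.3% to 49.6% of TCRα clonotypes per tumor, but 3.90% to 4.95% and 3.22% to 5.36% of counts. From 0.1% to 1% they were 21.7%, 17.4% and 6.94% of TCRβ clonotypes in mice 6, 12 and 14. For TCRα it was 0.909%, 38.0% and 8.98%. In this class 100% of them were found in the other tumor, so the agreement given for it includes near-variants. The largest TCRβ clonotype of mouse 6 had 63 of them, 56 found in both tumors. For that of mouse 12 it was 63 of 73, and for that of mouse 14 it was 78 of 90. The near-variant of TRBV17/TRBJ2-1 of mouse 6 with the most counts is shown after it, with the changed base in capitals, T12G counted from 1 at the 5′ end of the CDR3:
largest clonotype of mouse 6: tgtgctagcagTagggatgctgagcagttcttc
its near-variant: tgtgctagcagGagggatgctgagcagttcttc

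The first had 328921 and 211433 counts in tumors 1 and 2 of mouse 6 and the second 2148 and 1229. For TRAV9-1/TRAJ40 of mouse 6 the largest near-variant had an identical CDR3 coding sequence listed under TRAV9-4 instead of TRAV9-1, with 1055 and 878 counts, so counts of closely related V segments are uncertain. Near-variants were found in the other tumor more often than the rest of their class. From 0.001% to 0.01%, 93.6% ± 4.09 of TCRβ near-variants were found there, against 24.6% ± 3.37 of the others (SD, n = 3). For TCRα it was 73.6% ± 21.3 against 23.5% ± 5.63. The same direction held in every mouse from 0.01% downward. The origin of the near-variants was not tested. With them left out, TCRβ detection from 0.001% to 0.01% was 23.3% in place of 42.9% and TCRα detection 22.1% in place of 45.9%.

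Tumors of different mice set the background for finding a clonotype. A clonotype from 0.001% to 0.01% was found on average in 1.52% ± 0.136 (TCRβ) and 2.61% ± 0.427 (TCRα) of cases in a tumor of another time-matched mouse. For the class over 1% it was 31.1% ± 13.1 and 17.9% ± 15.5. This was above the class from 0.1% to 1% in mice 12 and 14 for both chains, but not in mouse 6, with 24.1% against 28.6% for TCRβ and 4.84% against 12.1% for TCRα. Of 31 TCRβ clonotypes with a mean share over 1%, 17 were found in another time-matched mouse. Their highest share there had a median of 0.00133% and reached 1.03% for TRBV17/TRBJ2-1 of mouse 6. Of 34 TCRα clonotypes it was 9, with a median of 0.00227%. The highest of these, 1.84%, was TRAV7-1 with TRAJ30, 1 clonotype with a mean share of 1.63% in mouse 6 and 1.25% in mouse 14, which is counted in both mice.

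Summed over clonotypes, the distance between the tumors of a mouse, the sum of absolute share differences divided by 2, was 13.1, 12.2 and 20.4 percentage points for TCRβ and 28.5, 9.97 and 25.8 for TCRα in mice 6, 12 and 14. In TCRβ, clonotypes with a mean share over 1% gave 52.2% of this distance in mouse 12 and 51.4% in mouse 14, but 12.7% in mouse 6, where clonotypes from 0.001% to 0.01% gave 45.2%. In TCRα of mouse 6 the largest part, 37.7%, lay between 0.01% and 0.1%.

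V segment usage, the percentage of counts that carry a segment, followed the dominant clonotypes. TRBV17 (Vβ9 in the older naming) had the highest mean use among TCRβ V segments. Mouse 6 had 62.7% in tumor 1 and 64.8% in tumor 2, mouse 12 had 28.8% and 26.6%, and mouse 14 had 23.1% and 18.6%. In mouse 6 its largest clonotype made up 89.5% and 86.8% of the TRBV17 counts. TRBV13-1 (Vβ8.3) had 7.21% and 6.97% in mouse 6, against 27.8% and 24.6% in mouse 12 and 44.4% and 48.4% in mouse 14. TRBV13-2 (Vβ8.2) had 2.35% and 2.67%, 26.8% and 31.7%, and 10.8% and 9.41%. For TRBV13-1 and TRBV13-2 each tumor was closest to the other tumor of its mouse, while for TRBV17 tumor 1 of mouse 14 was closer to tumor 2 of mouse 12 than to its own pair.

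Tumors 1 and 2 were compared with edgeR's quasi-likelihood test on segment counts with the mouse as a block, and a segment was called at a Benjamini-Hochberg adjusted p under 0.05. Of 24 TCRβ V segments tested 0 were called (0%), with 1 at an unadjusted p under 0.05. DESeq2 called 1 (4.17%), TRBV15, with 2 at an unadjusted p under 0.05. Of 63 TCRα V segments 0 were called (0%), with 5 at an unadjusted p under 0.05, and DESeq2 called 1 (1.59%), TRAV17, with 14 at an unadjusted p under 0.05. TRAV17 had 3.21% and 5.12%, 0.767% and 0.972%, and 0.853% and 0.899% in mice 6, 12 and 14 (edgeR log2 fold change 0.36, SE 0.23, adjusted p = 0.748). In mouse 6 the clonotype TRAV17/TRAJ53 alone had 2.81% and 4.73%. The lowest edgeR p among TCRα V segments was that of TRAV13D-1 (log2 fold change -1.67, SE 0.50, adjusted p = 0.107). It was called by edgeR in some alternatives, which are given below. With 3 pairs, a p above the threshold does not show equal usage. The tumor numbers are labels only, so the test asks for a direction shared by the numbers across mice. Opposite differences cancel in it, and 0 calls do not measure how far the tumors of a mouse differ. Over the 11 TCRβ V segments with a mean share of 1% or more, the absolute log2 ratio between tumors had a median of 0.18 over segments and mice, and 2 of the values passed 2-fold. Over the 21 TCRα V segments it was 0.23, and 1 passed 2-fold.

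TRBV15 (Vβ12) had the lowest p among TCRβ V segments. Its usage was 0.104% and 0.142% in mouse 6, against 0.0265% and 0.0580% in mouse 12 and 10.0% and 13.7% in mouse 14, and was higher in tumor 2 in 3 of 3 mice. The log2 fold change was 0.65 (SE 0.17, edgeR's quasi-likelihood test, adjusted p = 0.0504). DESeq2 gave 0.86 with an adjusted p of 0.00313. In the other alternatives by counts, all with edgeR, adjusted p was between 0.0518 and 0.994. Among these, TMM scaling gave a log2 fold change of 1.04 (edgeR adjusted p = 0.377), and leaving out 1 mouse in turn gave edgeR adjusted p values of 0.167 to 0.468. With each clonotype counted once, edgeR gave TRBV15 an adjusted p of 0.108. With near-variants also left out, edgeR called it (log2 fold change 0.64, adjusted p = 0.0285). In mouse 14, the clonotype TRBV15/TRBJ2-4 had 9.31% and 12.7% and held 92.8% and 93.1% of TRBV15 counts, so 3.41 of the 3.63 percentage points between these tumors were from 1 clonotype. TRBV15 is among the segments (TRBV12-1, TRBV12-2, TRBV15, TRBV16 and TRBV26) whose T cells are deleted in BALB/c mice by superantigens of inherited mammary tumor viruses. Their sum was 0.352% and 0.394%, 0.383% and 0.447%, and 10.4% and 13.9% in mice 6, 12 and 14, low in 4 tumors and raised in both tumors of mouse 14. In the main test by counts, 0 of these 5 segments were called by edgeR, as of all 24, and TRBV15 alone by DESeq2.

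TRBV4 (Vβ10) had 11.6% and 9.18% in mouse 6 and under 0.8% in the other 4 tumors, and its clonotype with TRBJ2-1 held 81.2% and 80.4% of it in mouse 6. TRBV3 (Vβ16) had 0.214% and 0.198% in mouse 6, against 4.79% and 4.76% in mouse 12 and 0.523% and 0.214% in mouse 14. Between the mouse 14 tumors the difference of -0.308 percentage points included -0.273 from TRBV3/TRBJ2-7, the clonotype found in tumor 1 only.

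Among TCRα V segments, TRAV7-4 was used most, with 6.89% and 5.96%, 41.3% and 46.4%, and 6.29% and 14.0% in mice 6, 12 and 14 (edgeR log2 fold change 0.37, SE 0.23, adjusted p = 0.748). The mouse 14 tumors differed by 7.67 percentage points, of which 7.50 were from the TRAJ39 clonotype printed above, at 2.92% and 10.4%. TRAV12-1 had 2.09% and 2.38%, 4.31% and 3.24%, and 29.7% and 29.8%. In mouse 14 this near-equal sum hid opposite differences, since TRAV12-1/TRAJ33 was higher in tumor 2 by 3.16 percentage points and the rest of TRAV12-1 lower by a difference of -3.14. TRAV14-3 was lower in tumor 2 in 3 of 3 mice, at 2.94% and 1.95%, 0.124% and 0.0882%, and 2.44% and 1.34% (log2 fold change -0.65, SE 0.24, adjusted p = 0.212). TRAV6-1 was at 4.33% and 2.69% in mouse 6, mostly 1 clonotype with TRAJ34, and under 0.04% in the other 4 tumors. The use of TRAV7-3 was highest in mouse 14 (25.8% and 20.0%), that of TRAV16D/DV11 in mouse 12 (20.0% and 19.1%) and that of TRAV9-1 in mouse 6 (14.8% and 16.1%).

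J segments were tested in the same way, with the same limits. Of 12 TCRβ J segments 0 were called by edgeR (0%) and 0 by DESeq2, with 1 at an unadjusted p under 0.05 in each. Of 43 TCRα J segments 0 were called by either (0%), with 4 at an unadjusted p under 0.05 in each. TRBJ2-1 had 73.5% and 71.9% in mouse 6, against 6.68% and 6.31% in mouse 12 and 10.5% and 12.7% in mouse 14. TRBJ2-5 was the main J segment of mouse 12, with 32.1% and 37.7%, and TRBV13-2/TRBJ2-5 gave 4.54 of the 5.62 percentage points between its tumors. TRBJ2-4 was the main one of mouse 14, with 37.4% and 37.1%. There TRBV13-1/TRBJ2-4 was lower in tumor 2 by a difference of -3.81 percentage points while the other TRBJ2-4 clonotypes together were higher by 3.51. The TRBJ1 cluster, the first of the β locus's groups of J segments, took 11.2% and 12.8%, 31.7% and 29.1%, and 24.7% and 23.5% of counts, and TRBJ2 the remainder. Within these, TRBJ1-1 had 18.9% and 18.6% in mouse 12 and TRBJ2-7 had 21.2% and 17.6%.

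TRBJ1-3 had the widest mean change among TCRβ J segments, with 1.52% and 2.21%, 4.97% and 4.81%, and 2.30% and 6.16% in mice 6, 12 and 14 (log2 fold change 0.63, SE 0.25, edgeR adjusted p = 0.211). In mouse 14 its clonotype printed above had 1.59% and 5.38% and gave 3.78 of the 3.86 percentage points. TRBJ1-5 followed TRBV17/TRBJ1-5 in mouse 12, which had 5.55% and 3.70%. Among TCRα J segments, TRAJ30 was used most, with 3.51% and 5.34%, 29.3% and 28.6%, and 25.8% and 22.3%. TRAJ15 had 33.1% and 37.9% in mouse 12 and under 3% elsewhere. TRAJ40 had 17.5% and 18.4% in mouse 6, while TRAJ26 had 17.1% and 14.3% and TRAJ33 had 12.0% and 15.2% in mouse 14. TRAJ22 had the widest mean change, with 3.16% and 2.53%, 0.260% and 0.243%, and 2.94% and 0.863%, and in mouse 14 1 clonotype, printed above, had 1.85% and 0.0172%. TRAJ58 had 2.61% and 2.42% in mouse 6 and 0.715% and 0.250% in mouse 14. There the clonotype TRAV16/TRAJ58, found in tumor 1 only, gave most of the difference.

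**Figure D3:**
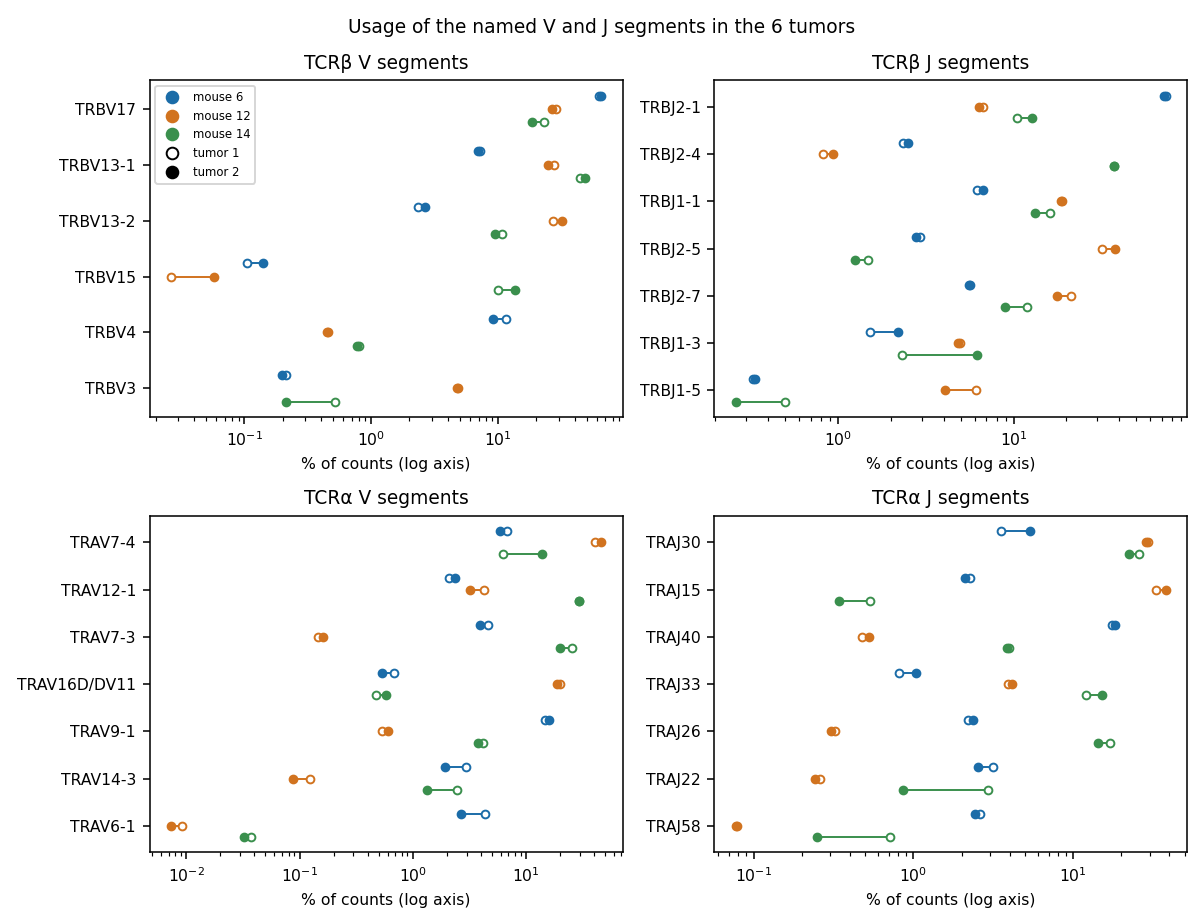
Usage of the named V and J segments, in % of counts on a log axis, in tumor 1 (open) and tumor 2 (filled) of mice 6, 12 and 14. The tumors of a mouse mostly lie side by side while the mice differ, as for TRBV17 at 62.7% and 64.8% in mouse 6. Wide gaps include TRAV7-4, TRBJ1-3, TRAJ22 and TRAJ58 in mouse 14.

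With each clonotype counted once, near-variants included, edgeR called 0 of 17 TCRβ V, 0 of 12 TCRβ J, 0 of 44 TCRα V and 0 of 40 TCRα J segments (0% each), with 1, 2, 3 and 4 at an unadjusted p under 0.05. DESeq2 called 0 in each, with 1, 0, 0 and 1 at an unadjusted p under 0.05.

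TCRα chains that mark other T cell types were counted too. Natural killer T cells, which recognize lipids on CD1d, carry TRAV11 with TRAJ18, and such chains made up 0.737% and 0.531% of counts in mouse 6, against 0.103% and 0.0769% in mouse 12 and 0.397% and 0.693% in mouse 14. Mucosal-associated invariant T cells, which recognize vitamin B metabolites on MR1, carry TRAV1 with TRAJ33. These took 0.00754% and 0.0800%, 0.00507% and 0 (0 of 846655 counts, which allows up to 0.000354%), and 0.0263% and 0.0249%. V segments named with DV can also join δ chains of γδ T cells. They made up 2.40% and 2.62% in mouse 6, against 20.3% and 19.3% in mouse 12 and 1.22% and 1.33% in mouse 14, and in mouse 12 the clonotype of TRAV16D/DV11 with TRAJ30, an α chain, gave 18.7 and 18.0 of these percentage points.

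The most used TCRβ length was 11 residues in both tumors of mouse 6 (63.2% and 63.9% of counts), 14 in mouse 12 (30.7% and 35.6%) and 16 in mouse 14 (48.0% and 50.8%). For TCRα it was 15 residues in both tumors of mouse 12, but 14 in tumor 1 and 13 in tumor 2 of mouse 6, and 12 and 13 in mouse 14. The largest TCRα clonotype had this length in 4 of 6 tumors, but not in tumor 1 of mouse 6 or tumor 2 of mouse 14. Mean TCRβ lengths were 12.25 and 12.22, 13.64 and 13.61, and 13.89 and 14.08 residues.

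Over all segments, the distance in TCRβ V usage between the tumors of a mouse was 3.54, 5.86 and 7.76 percentage points in mice 6, 12 and 14. Between time-matched mice, over 12 pairs of tumors, it had a median of 56.1 (range 31.5 to 63.2). For TCRβ J usage it was 1.93, 6.66 and 8.94 against a median of 63.4, and for TCRβ CDR3 length 2.26, 5.69 and 7.17 against 54.7. TCRα V usage gave 8.99, 6.51 and 11.5 against 70.7, J usage 7.33, 6.30 and 13.6 against 57.5, and CDR3 length 4.95, 5.36 and 10.9 against 35.3. In each of these 6 profiles, 6 of 6 tumors were nearest to the other tumor of their own mouse. Mouse 14 had the widest distance between its tumors in all 6.

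With each clonotype counted once, distances between mice were smaller, with medians of 24.1 for TCRβ V, 25.4 for TCRβ J and 25.1 for TCRβ CDR3 length. Without near-variants these fell to 13.0, 10.8 and 12.6, against distances within mice of 5.21 ± 1.28, 4.77 ± 0.720 and 4.36 ± 1.57 (SD, n = 3). For TCRα V usage the median went from 37.5 to 18.7 and the distance within mice from 8.66 ± 2.12 to 10.8 ± 2.32, and 5 of 6 tumors were then nearest to their own mouse. For TCRα J usage 5 of 6 were, with 8.49 ± 1.08 within mice and a median of 13.6 between them. The highest values within mice, 13.34 for V and 9.73 for J usage in mouse 14, were above the lowest between mice, 13.29 and 9.14. For TCRα CDR3 length 3 of 6 did, with 3.48 ± 1.93 within mice and a median of 4.66 between them. When expansion and near-variants were both left out, the tumors of a mouse therefore stood out less from those of other mice.

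**Figure D4:**
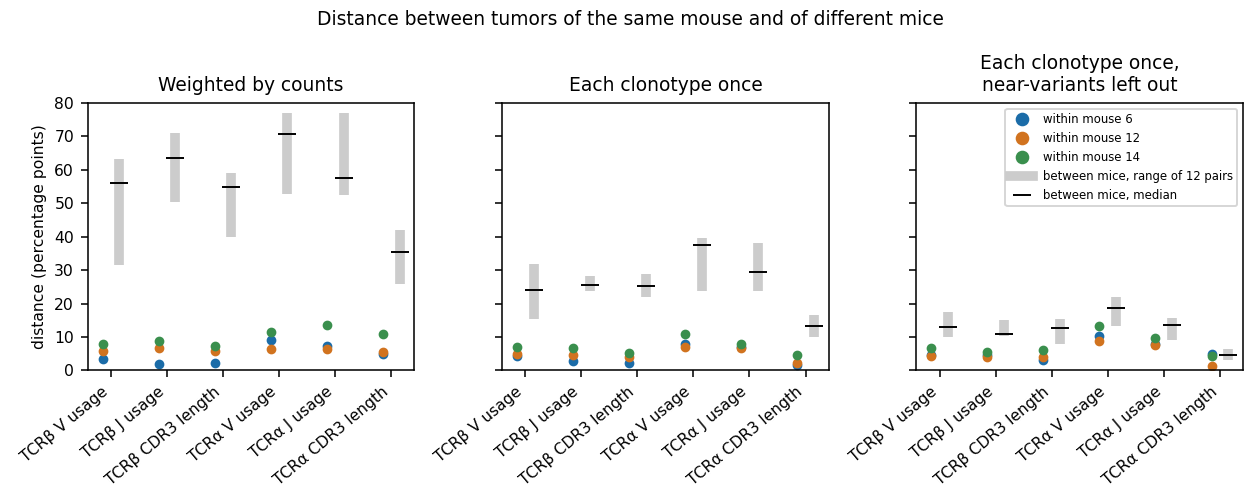
Distance in V usage, J usage and CDR3 length, in percentage points, between the tumors of a mouse (colored points) and between tumors of different time-matched mice (grey range of 12 pairs, black median). Weighted by counts (left) every point lies below the grey ranges. With each clonotype once (middle) and near-variants left out (right) the gap narrows, and in the right panel at least 1 point reaches into the grey range for TCRα V usage, J usage and CDR3 length, and for no TCRβ profile.

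The same-day pairs were set against the 9 mice whose tumors were taken 11 days apart, which asks whether the agreement above goes with a shared harvest day. Libraries of each chain were thinned to 63291 (TCRβ) or 26623 (TCRα) counts, since the other libraries include shallower ones, and 1 value per mouse was compared with two-sided exact permutation tests. Values of p were Benjamini-Hochberg adjusted over 10 tests. At this depth the TCRβ V usage distance was 5.77 ± 2.10 percentage points in the 3 time-matched mice (SD, n = 3) and 23.2 ± 8.73 in the 9 others (SD, n = 9; exact permutation test, adjusted p = 0.0152). TCRβ J usage gave 5.83 ± 3.58 and 20.8 ± 9.23 (exact permutation test, adjusted p = 0.0253), and TCRβ CDR3 length 5.08 ± 2.47 and 17.7 ± 5.85 (exact permutation test, adjusted p = 0.0152). The V usage and CDR3 length values of the groups did not overlap, while for J usage the highest time-matched value, 8.93, was above the lowest of the others, 8.04.

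TCRα gave the same direction, with 9.22 ± 2.61 and 36.2 ± 8.47 percentage points for V usage, 9.23 ± 3.97 and 30.6 ± 10.5 for J usage (exact permutation tests, adjusted p = 0.0152 for both) and 7.15 ± 3.45 and 17.2 ± 6.29 for CDR3 length (adjusted p = 0.0364), where the groups overlapped. Of TCRβ clonotypes of 0.1% or more, 98.5% ± 2.25 were found in the other tumor in time-matched mice and 78.5% ± 13.7 in the others (exact permutation test, adjusted p = 0.0253). For TCRα it was 98.3% ± 1.48 and 69.1% ± 14.6 (adjusted p = 0.0152). Their median absolute log2 ratio was 0.35 ± 0.10 and 2.87 ± 1.67 for TCRβ (adjusted p = 0.0253) and 0.36 ± 0.18 and 3.25 ± 1.41 for TCRα (adjusted p = 0.0152, all by exact permutation test). Against the 3 untreated mice alone, the difference had the same direction in all 10 measures, with exact permutation p = 0.1, the smallest that 3 against 3 allow, in 9 of them and 0.2 for TCRβ J usage. With any 1 time-matched mouse left out, 0 of the 10 passed (exact permutation test, adjusted p from 0.0519 to 0.127). With each clonotype counted once, TCRβ V and J usage, TCRβ CDR3 length and TCRα J usage did not pass (exact permutation test, adjusted p = 0.105, 0.0584, 0.105 and 0.0739). Without thinning, the TCRβ log2 ratio did not pass. With each mouse's largest clonotype left out, TCRα CDR3 length did not pass either. The groups also differ in the days of harvest and, for 6 mice, in drug. The 9 other mice also received surgery, anesthesia and pain relief. Before thinning, time-matched tumors listed 2657 to 3746 TCRβ and 2210 to 3475 TCRα clonotypes, and the others 777 to 3264 and 515 to 2818. Thinning equalizes counts but not the number of T cells behind them, and the part of this was not tested. The interval between harvests cannot be told apart from these differences.

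**Figure D5:**
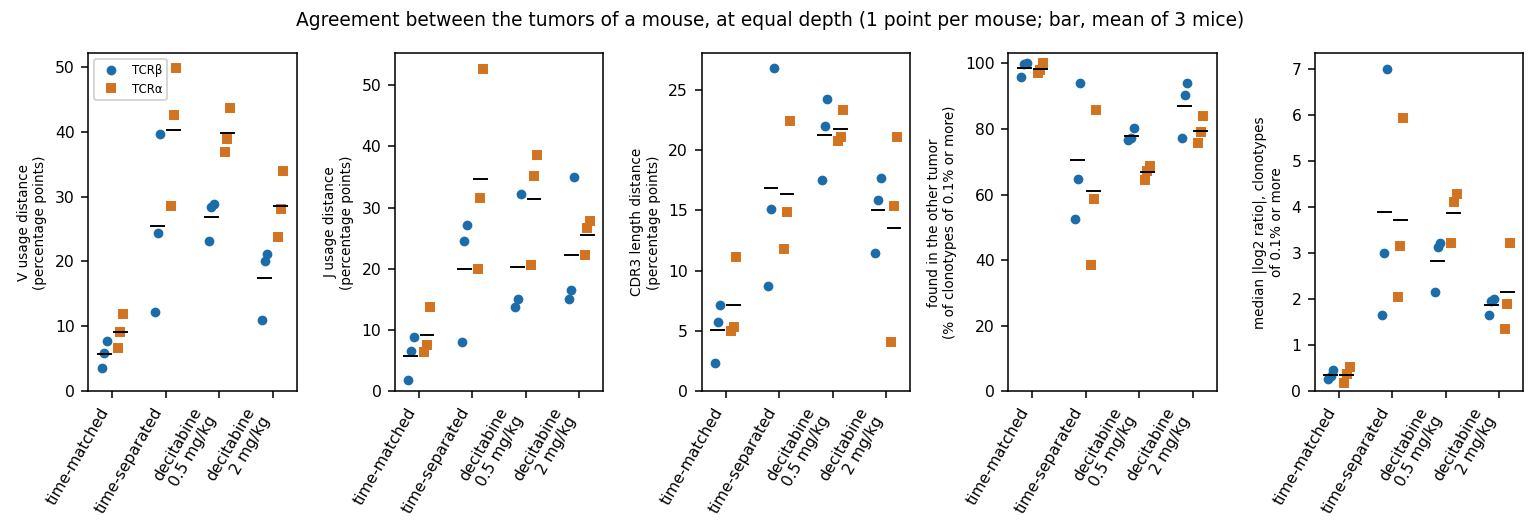
Agreement between the tumors of a mouse at equal depth, 1 point per mouse, in the time-matched group and the 3 groups with tumors taken 11 days apart (bars, means of 3 mice; blue, TCRβ; orange, TCRα). The panels show V usage, J usage and CDR3 length distance in percentage points, the percentage of clonotypes of 0.1% or more found in the other tumor, and their median absolute log2 ratio. The time-matched mice have the lowest mean distances and the highest detection, 98.5% for TCRβ.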

How the data were processed

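TCRβ and TCRα libraries were made by the authors from RNA of whole tumors with a kit that adds unique molecular identifiers, and sequences were called with the Cogent NGS Immune Profiler (version 2.0 per the labels). The deposited tables hold 1 whole-number count per receptor sequence, without normalization; the count column and the study's text call these reads, and its methods mention a step based on the identifiers, but whether reads with the same identifier were merged, and the segment reference, are not given in the sources used here. Sequences with the stop mark or fewer than 2 counts were left out, and clonotypes were formed from CDR3 amino acids, V and J segment. Samples were grouped and paired by the mouse in their titles, and each of the 6 time-matched tumors was nearest to the other tumor of its mouse in V and J usage weighted by counts. Log2 ratios of clonotypes had 1 count added. Segments with at least 10 counts in at least 3 libraries were tested with edgeR 4.0.16 (R 4.3.3) on library totals; DESeq2 1.42.0 was an alternative. Thinning used 20 draws. Python 3.11.15 with numpy 2.4.6, pandas 2.3.3, scipy 1.17.1 and matplotlib 3.10.9 did the rest, and the computations were tested on simulated data.

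Segments named were the 5 most used per table and the 2 with the widest mean log2 ratio among those of 1% or more; clonotypes named were the 3 largest per mouse and chain and the 1 with the widest log2 ratio among those of 0.1% or more in either tumor, besides those said to be named later. Segments called in any setting and those of the mammary tumor virus, natural killer T, mucosal-associated invariant T and DV lists were named too. The members, lists and tests were chosen with earlier results of these data known. Whether a mouse is 1 culture or cage batch is not labelled, and p-values measure the spread between these mice. Alternatives changed the test, scaling, filters, minimum count, clonotype definition, depth, distance measure, pairing and set of mice; near-variants and the 10 largest clonotypes were left out in alternatives added after the data were seen.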

Additional observations from a re-analysis of the deposited data

Results flagged for a closer look

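The difference between time-matched and time-separated mice passed the adjusted threshold by an exact permutation test for 10 of 10 measures of agreement, each of which is listed here as a difference between groups, time-matched minus time-separated (3 and 9 mice). For TCRβ the differences were -17.4 percentage points in V usage distance, -15.0 in J usage distance, -12.6 in CDR3 length distance, 20.1 percentage points in detection of clonotypes of 0.1% or more and -2.52 in their median absolute log2 ratio. For TCRα they were -27.0, -21.4, -10.0, 29.3 and -2.88 in the same order. Of the 10, 0 passed with any 1 time-matched mouse left out, and 4 of the 6 usage and length measures did not pass with each clonotype counted once. The measures come from the same libraries and are not independent of each other.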

How the results depend on the processing

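Differences between time-matched and time-separated mice below are in the order V usage, J usage, CDR3 length, detection, absolute log2 ratio. With only the 3 untreated time-separated mice they were -19.7, -14.1, -11.8, 28.2 and -3.54 for TCRβ and -31.1, -25.5, -9.21, 37.4 and -3.35 for TCRα, and none of the 10 could pass, since 3 against 3 cannot give a p below 0.1. Leaving out 1 time-matched mouse in turn gave -18.4 to -16.3, -16.6 to -13.0, -13.7 to -11.3, 19.3 to 21.4 and -2.58 to -2.48 for TCRβ and -28.4 to -25.7, -23.6 to -19.9, -12.0 to -8.96, 28.4 to 29.8 and -2.97 to -2.79 for TCRα, none past the adjusted threshold with 2 mice against 9. Without thinning, the TCRβ log2 ratio difference was -2.72 (exact permutation test, adjusted p = 0.0864). When each mouse's largest clonotype was dropped, the TCRα CDR3 length difference was -9.08 (adjusted p = 0.05, exact permutation test). With each clonotype counted once, TCRβ V, J and CDR3 length (-11.2, -7.30 and -7.99) and TCRα J usage (-11.2) no longer passed. The other alternatives, apart from the changed pairing given next, kept every call.

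Without the replicate block, pairing tumor 1 with tumor 2 of the other time-matched mice, all 10 differences reversed, to 27.7, 41.4, 34.0, -64.2 and 6.02 for TCRβ and 30.1, 31.9, 18.1, -58.8 and 3.64 for TCRα. Segment tests without the block made 0 calls, as with it.

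The count of called segments went from 0 to 1 or 2 in these cases: TCRβ V usage by counts, 1 with DESeq2 (TRBV15) and 1 without mouse 12 (TRBV8, a mean share of 0.0151%), so 0 to 1 over mice left out; TCRβ V usage by clonotypes, 1 without near-variants (TRBV15); TCRβ J usage by counts, 1 without the largest clonotypes (TRBJ1-3); and TCRα V usage by counts, 1 with DESeq2 (TRAV17), 2 without a filter on low counts (TRAV13D-1 and TRAV9D-1), and TRAV13D-1 as 1 with single-count sequences kept, without near-variants and without mouse 6, so 0 to 1 over mice left out. The cause was not tested. TRAV13D-1 had 0.474% and 0.402% in mouse 6, 0.0619% and 0.01004% in mouse 12, 0.370% and 0.0855% in mouse 14, and was lower in tumor 2 in 3 of 3 mice. Counts of near-identical V copies such as this one are uncertain.

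With classes set by the mean share of both tumors, TCRβ detection from 0.01% to 0.1% was 95.4% in place of 78.7%; that class leaves out clonotypes that are near the boundary in 1 tumor and missing in the other. Without mouse 12, detection in this class was 69.6% for TCRβ and 46.7% for TCRα. Under 0.001%, 3362 of 8705 TCRβ and 1125 of 4907 TCRα entries would give at least 3 counts in the other tumor at an equal share.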

Other observations

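Sequences with the stop mark, which the comparisons leave out, took a similar share in both tumors of a mouse. For TCRα they were 25.3% and 24.4% of all counts in the tumors of mouse 6. Mouse 12 had 9.40% and 8.99%, and mouse 14 had 11.1% and 13.5%. For TCRβ they lay between 7.06% and 8.52% in the 6 tumors.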
